A study of Mus musculus with 42 samples.

Results

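The anti-m6A antibody signal of testes without PCIF1 was measured as the immunoprecipitate (IP) against the matched input in m6Am-Exo-Seq libraries of Pcif1 knockout (KO) mice, 3 IP and 3 input libraries in all. A gene entered the comparison when its signal reached 10 in at least 3 of these 6 libraries. Of the 27409 genes in the deposited testes table, 11364 (41.5%) met this rule and 16045 lay below it. Rarg and Gria3, just inside the limit, had a third-highest KO signal of 10.48, and Gramd3 and Hmgcll1, just outside it, one of 9.91. The signal is the number of reads of a gene multiplied by a factor for its library, and 1 read was worth between 0.75 and 2.20 units in the KO libraries.

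The KO line carries an 89 bp Cas9-made deletion across the boundary of exon 15 and intron 16 of Pcif1. Per the labels' protocols the deletion takes out catalytic residues and brings in a premature stop. It was made in B6D2F1/J hybrid embryos, the founders were bred to C57BL/6J, and the line is 1 deletion allele. KO and heterozygous (HET) libraries both came from whole testes of adult mice, and the HET group, which carries the same deletion on 1 allele, stood in for a wild-type control. The series lists 42 samples, of which 12 are testes m6Am-Exo-Seq libraries, 3 in each of KO input, KO IP, HET input and HET IP.

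PCIF1 methylates the N6 position of a 2′-O-methylated adenosine that is the first transcribed base next to the mRNA cap, which gives m6Am. The METTL3-METTL14 complex makes m6A at internal adenosines, most often within a GGAC core, and the common m6A antibodies bind both modified bases. As it is generally performed, m6Am-Exo-Seq fragments RNA, digests uncapped pieces with a 5′-to-3′ exonuclease and precipitates the remaining capped ends. The question of the comparison is which transcripts the antibody still takes up, or leaves behind, when PCIF1 cannot methylate the cap.

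KO inputs held 4151226, 4971554 and 4523440 reads over genes, and KO IP libraries 2675006, 1816831 and 4364847. A signal of 10 stood for 11.3 to 13.3 reads in KO inputs and for 4.54 to 11.1 reads in KO IP libraries, and the shallowest library, KO IP replicate 2, listed 201 members at 0 against 58 and 7 in the other KO IP libraries. The median SD of a member over replicates was 0.19 (log2) in KO inputs and 0.33 in KO IP. Pcif1 itself was below the filter, with 9, 9 and 2 reads in KO inputs and 6, 0 and 7 reads in KO IP, and since the deletion is a small part of the gene these totals check no label. The labels do not say whether the 3 libraries of a group came from separate animals, so the p-values measure the spread between these libraries, which may be technical.

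Enrichment is given as the difference of IP and input on the log2(signal + 1) scale, so that changes of low genes come out too small, and the test is limma with Benjamini-Hochberg adjustment at 0.05 over the 12387 genes with a signal of 10 in 3 of the 12 libraries. Since each library was scaled to its typical gene, enriched and depleted mean above and below that gene, not more or less methylated RNA in total. Among the 11364 members 2585 (22.7%) were enriched in KO IP, against a background of 21.2% of the genes tested. Depleted members numbered 2868 (25.2%), against a background of 24.3%, and 5911 (52%) passed neither test. All 3 IP values lay above all 3 inputs for 3115 members (background 26%) and below them for 3397 (background 29%). Of the called genes, 92 enriched and 131 depleted members had groups that overlapped. Among the 8898 members with a signal of 10 or more in all 6 libraries, 24.9% were enriched and 24.9% depleted. A further 193 members had passed the filter through the IP libraries alone and 261 through the inputs alone, so their direction was set by the filter. Others had 3 values of at least 10 in 1 fraction and only 1 or 2 in the other, and needed the first fraction to pass. Among them were Pim3, Ndst1, Fosb, Brwd3, Mdfi, Zfp54 and Myd88 through the IP libraries. Ndufv2, Sf3b3, Ccdc150, Ccdc60, Med6, Bcl2l13, Mettl16 and Cbll1 passed so through the inputs. The filter favoured their direction, so the tests given for them are no independent support. Of the genes named here Alb, Smad3, Itpkb and Gm25732 had passed through the IP libraries alone. Mettl22, Ranbp2, Dohh, Lyrm9, Mrpl21, Mrpl35, Ndufs5, Dmc1, Tex36 and Tyrobp had passed through the inputs alone. The KO values of these genes, and their differences from HET, which hold the same KO values, are given as a description.

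Enrichments were spread more widely in KO than in HET. The KO quartiles were -0.71 and 0.57, the outer percentiles (0.05 and 0.95) were -1.77 and 1.46, and the same outer percentiles in HET were -1.42 and 1.12. The SD of the enrichment across members was 1.00 in KO and 0.79 in HET. Enrichments called above 1 numbered 1406 in KO and 671 in HET, and those called above 2 numbered 153 and 17. Depletions called below -1 numbered 1779 in KO and 996 in HET, and those called below -2 numbered 376 and 182. HET enrichment was called for 15.6% of members (background 14.7%) and depletion for 16.3% (background 15.4%). The IP libraries differed in depth, with 2675006, 1816831 and 4364847 reads in KO and 2689591, 6574479 and 4609741 in HET. Members at 0 numbered 58, 201 and 7 in KO IP and 72, 10 and 28 in HET IP. The part of depth in the wider KO spread was not tested. The KO and HET libraries are separate, the correlation of the 2 enrichments across the members was r = 0.63, and genes are not independent replicates.

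**Figure D1:**
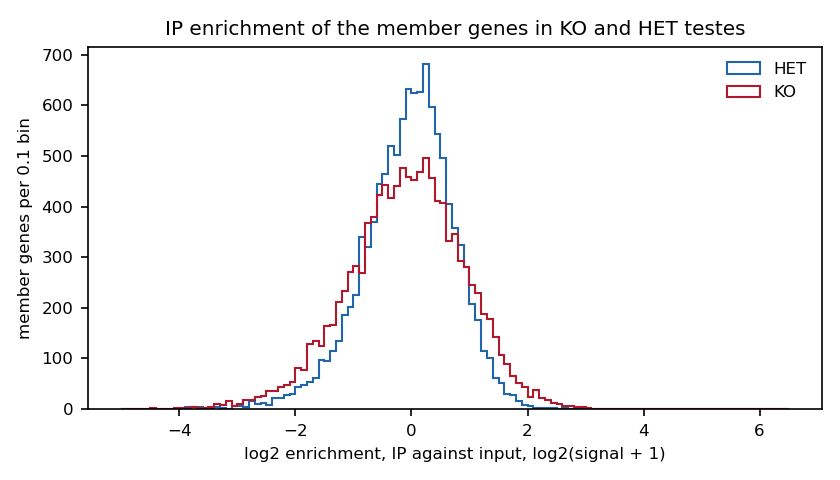
Number of member genes (y axis) per 0.1 bin of log2 enrichment, IP against input on the log2(signal + 1) scale (x axis), in KO (red) and HET (blue). Both are centred near 0, with medians of -0.05 and 0.01, and the KO outline is lower at the centre and wider on both sides.

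The genes with the highest IP enrichment over input in KO encoded proteins of several kinds. Alb, which encodes serum albumin, was listed at 0 in all 3 KO inputs and at 132, 44.04 and 58.6 in KO IP. Counted against a floor of 3 reads over the 3 inputs (a mean signal of 0.818), its mean IP signal was at least 95.5-fold higher, and since Alb passed the filter through its IP libraries alone, no test of it is given. HET gave Alb signals of 0, 0 and 0.797 in inputs and 37.3, 15.02 and 19.7 in IP, so the antibody fraction held Alb reads in both genotypes while the inputs held almost none. Other plasma protein genes stood low, and Apoa1, Apoa2, Apoh, Fgb and Serpina1a stood between 0 and 4.5 in every KO library. Ahsg stood at 0.89, 0.75 and 2.45 in KO inputs and at 4.49, 13.2 and 5.41 in KO IP. Apoc1 stood at 2.66, 3.0 and 2.45 in KO inputs and at 4.49, 4.40 and 9.01 in KO IP. In both genes every KO IP value lay above every KO input, as in Alb, while Apoa2 had KO signal (3.54) in input replicate 1 alone. These 7 genes were chosen after the Alb values were seen, and the source of the Alb reads was not tested.

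Rbbp6, a ubiquitin ligase with a role in 3′-end processing of pre-mRNA, had KO input signals of 581, 487 and 501 and KO IP signals of 4318, 3048 and 2859. Its enrichment was 2.68 ± 0.21 (SE), against 1.34 in HET, and the difference of 1.35 ± 0.29 (SE) passed limma's test (adjusted p = 0.0102). Sfswap, a splicing regulator with an RS domain, went from 166, 143 and 143 in KO inputs to 1152, 1108 and 793 in KO IP. These genes and the other highest ones were chosen as called enrichments whose IP and input values did not overlap, so that every IP library lies above every input by the choice.

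Fscb, a calcium-binding protein of the fibrous sheath of the sperm tail, had KO input signals of 60.3, 57.7 and 67.1 and IP signals of 567, 654 and 376, an enrichment of 3.05 ± 0.29 (SE). Tex13c1, an X-linked testis-expressed gene, went from 32.8, 42.7 and 45 to 382, 412 and 214, an enrichment of 2.99 ± 0.33 (SE). These 2 genes were also among the strongest in HET, at 2.28 and 2.16, and neither difference between genotypes passed the test (adjusted p = 0.245 and 0.275). Sec62, a subunit of the protein translocation machinery of the endoplasmic reticulum, went from 59.4, 58.5 and 49.1 to 457, 319 and 300.0. Its KO enrichment of 2.65 exceeded the 1.14 of HET (difference 1.51 ± 0.33 (SE), adjusted p = 0.0106). Scrt1, a zinc finger repressor, went from 61.1, 55.5 and 57.3 in inputs to 457, 282 and 341 in IP.

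Besides Alb, 5 of the 12 highest named genes had low inputs, and of these Smad3 and Itpkb passed the filter through the IP libraries alone. Pim3, Mdfi and Ndst1 had fewer than 3 inputs at 10 or more, so they passed it only with their IP values. Smad3, a signal transducer of the TGF-beta pathway, went from 7.09, 6.0 and 9.82 to 94.3, 88.1 and 66.7 (log2 3.29), and Pim3, a serine/threonine kinase, from 13.3, 4.50 and 9.82 to 114, 74.9 and 57.7 (log2 3.08). Itpkb, an inositol trisphosphate kinase, stood at 9.75, 6.0 and 9.82 in inputs and 77.8, 96.9 and 45.95 in IP. Mdfi, an inhibitor of myogenic transcription factors, stood at 2.66, 19.5 and 18 and 71.8, 88.1 and 69.4, and Ndst1, a heparan sulfate sulfotransferase, at 11.5, 6.0 and 6.55 and 52.4, 59.5 and 63.1. In Mdfi the first KO input was far below the other two.

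At the other end, the antibody fraction of KO testes was almost without reads of genes that the inputs held at moderate levels. Mettl22, a protein lysine methyltransferase, had KO input signals of 67.3, 94.5 and 77.7 and IP signals of 7.48, 0 and 4.50, a depletion of -4.48 ± 0.62 (SE) that HET shared (-3.48). Ranbp2, a giant nucleoporin of the cytoplasmic pore filaments, went from 69.1, 90 and 85.1 to 4.49, 0 and 8.11 (log2 -4.47 in KO and -1.76 in HET). In both genes the 0 came from the shallow KO IP replicate 2. The lowest genes were chosen among called depletions without overlap. Mettl22 and Ranbp2, like Dohh and Lyrm9, passed the filter through the inputs alone, so their values are a description.

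Ndufv2, a core subunit of respiratory complex I, went from 149, 118 and 133 to 11.97, 2.20 and 16.2. Sf3b3, a subunit of the splicing factor SF3b, went from 83.3, 115 and 134 to 5.99, 13.2 and 9.91. Dohh, the hydroxylase that completes hypusine in eIF5A, had inputs of 84.2, 85.5 and 87.5 and IP values of 7.48, 4.40 and 4.50. Depletion was stronger in KO than in HET for each of these genes, at -3.90 against -1.03, -3.42 against -0.80 and -3.78 against -1.41. Limma's adjusted p of the difference was 0.00894 for Ndufv2 and 0.00168 for Sf3b3. Depletion was also stronger in KO for the coiled-coil genes Ccdc150 (-3.89 against -1.34) and Ccdc60 (-3.36 against -0.48), with adjusted p of 0.0138 and 0.00211. Lyrm9 stood at -3.63 against -1.24. Dohh and Lyrm9 passed the filter through the inputs alone, so their differences are given as a description. Entpd4b, a Golgi nucleoside diphosphatase gene with a near-identical copy whose reads may be split with it, went from 192, 195 and 179 to 11.97, 22.02 and 22.5.

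**Figure D2:**
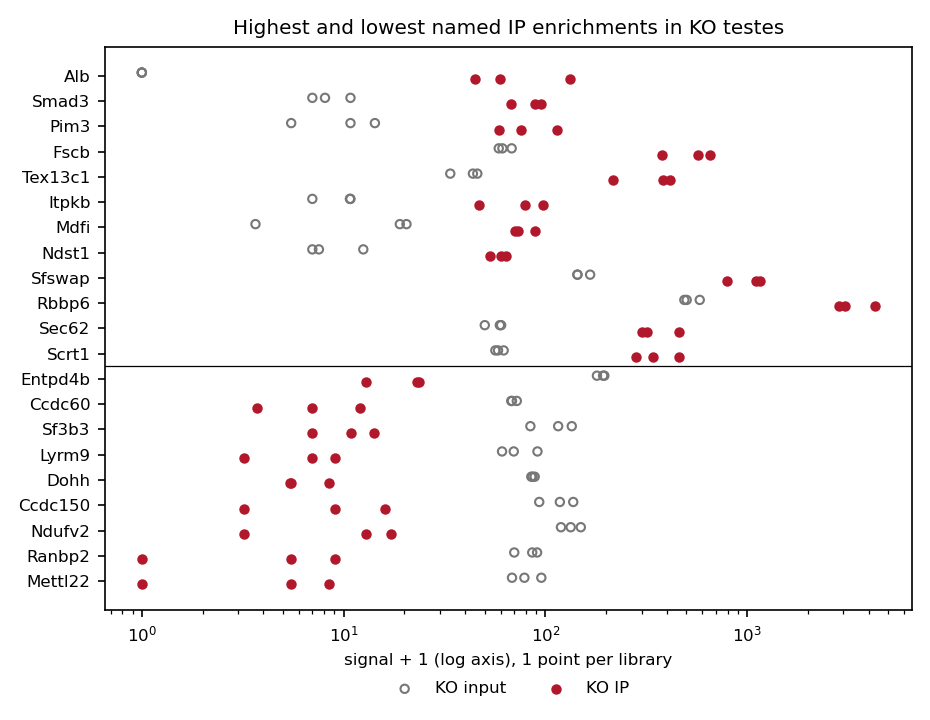
KO input (open grey) and KO IP (red) signal plus 1, on a log axis (x axis), for the 12 highest and for 9 of the 10 lowest enrichments the rule selected (y axis), with 1 point per library. In the upper block every red point lies to the right of the grey points of its gene and in the lower block to the left, as the choice of genes without overlap fixes, from Alb at 0 in all inputs to Mettl22 at 7.48, 0 and 4.50 in IP.

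The tightest signals among the 100 highest enrichments were chosen by the smallest spread of the 3 KO IP values. Ahcyl2, a relative of S-adenosylhomocysteine hydrolase, had the deepest coverage of them, with 2074, 1802 and 2098 in KO inputs and 7292, 7305 and 7553 in KO IP. Its enrichment was 1.89 ± 0.12 (SE) in KO and 1.01 in HET (difference 0.89 ± 0.17 (SE), limma adjusted p = 0.00584). Abl2, a tyrosine kinase of the ABL family, went from 113, 123 and 143 to 459.5, 482 and 476, and Tspyl2, an X-linked nucleosome assembly protein relative, from 84.2, 69 and 85.9 to 344, 359 and 331. The others were the potassium channel gene Kcnq3 (log2 2.10), the zinc finger gene Zfp54 (2.24) and Klf9 (1.84).

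The annotated starts of these genes give the base the cap would sit on if transcription in testes begins there, which was not tested. RefSeq promoters of GRCm38.p6 gave 1 start for 6488 members (57.1%), and those of 8 of the 12 highest and 8 of the 10 lowest named genes. The lines show, 5′ to 3′ on the transcribed strand, the 20 bases before the start and the first 10 from it, with the first transcribed base in capitals, for strongly enriched genes and then for strongly depleted ones.
Alb (chr5:90460850-90460879, plus strand): cagttattggttaaagaagtAtattagagc
Fscb (chr12:64474889-64474918, minus strand): aaagtgagatttgtcctaacAgaaacaaac
Fto (chr8:91313505-91313534, plus strand): acacacaggaggcggggtccAgggcgaggg
Tex13c1 (chrX:43590969-43590998, plus strand): aagatcagcttggcttttgcCagaaggaag
Rbbp6 (chr7:122970544-122970573, plus strand): agagagactagccgggaggtGcggccgcta
Sec62 (chr3:30792856-30792885, plus strand): ggacattccaaggctttgggGacgagctgt
Abl2 (chr1:156558767-156558796, plus strand): gctctgtcccacgctcgcccTgtgctcggt
Ranbp2 (chr10:58446832-58446861, plus strand): acagtgatgacgcgcgccgcAcgccctgtg
Ccdc60 (chr5:116288976-116289005, minus strand): gtgccctacttggcagttttAagccccaag
Mettl22 (chr16:8470793-8470822, plus strand): ctgtccgtcatggcggcttcCtgagcccca
Ndufv2 (chr17:66101550-66101579, minus strand): tgagcgcgcgcgcgccgtgcGtcctgggcg
Sf3b3 (chr8:110846794-110846823, minus strand): gggctagatacctttttcccGtcgcgcggc
Alb, Fscb and Fto begin with A, the base that PCIF1 can methylate, while Tex13c1, Rbbp6, Sec62 and Abl2 begin with C, G, G and T. Among the depleted genes Ranbp2 and Ccdc60 begin with A. Over all the named extremes with 1 start, A was the first base of 3 of 8 among the highest and of 2 of 8 among the lowest. The first 50 bases held 0 to 8 CpG in the highest and 2 to 11 in the lowest.

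Across the 6488 matched members the KO enrichment differed little with the first base. Genes that start with A (1868) had a median of -0.06 in KO and genes that start with another base (4620) one of -0.12. In HET the same medians were 0.12 and -0.05, a wider gap than in KO. An A start was found in 30.9% of KO-enriched and 26.5% of KO-depleted members, against 28.8% of all matched members and 38.3% of those enriched in HET. The KO enrichment was called lower than HET for 9.05% of A-start members and 6.30% of the others (background 6.25%). At a mean KO signal of at least 50 the KO medians were 0.05 (1036 A-start members) and -0.04 (2824 others).

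Among classes by CpG near the start, the gap between the genotypes was widest for members with few CpG. With 0 or 1 CpG in the first 50 bases, A-start members (482) had medians of 0.29, 0.26 and 0.08 in the 3 KO IP libraries and of 0.39, 0.59 and 0.51 in the HET ones. Their share called lower in KO was 12.4%, against 6.31% for members with as few CpG and another start base (618). The latter also had lower medians in KO IP (0.15, 0.16 and 0.02) than in HET IP (0.24, 0.38 and 0.35). With 2 to 4 CpG, 7.26% of A-start members (647) and 7.11% of the others (1631) were called lower in KO (background 6.25%). With 5 or more CpG, A-start members (739) had a median of -0.18 in KO and -0.08 in HET, and members with another start (2371) -0.16 and -0.17. The classes by CpG were drawn after the values were seen.

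The GGAC core was counted in the first 50 transcribed bases on both strands. Members with no GGAC (5191), with 1 (1158) and with 2 or more (139) had KO medians of -0.13, -0.04 and 0.13, and HET medians of -0.01, 0.01 and 0.06. On the other strand, read as GTCC, the KO medians went the opposite way, at -0.07 with none (5202), -0.25 with 1 (1119) and -0.25 with 2 or more (167). At a mean KO signal of at least 50 the GGAC classes had KO medians of -0.03 (3093), 0.01 (678) and 0.11 (89). The 3 KO IP libraries gave the last of these medians of 0.11, 0.03 and -0.01. The GTCC classes at that signal had KO medians of 0.01, -0.14 and -0.21. GGAC was present in 18.9% and GTCC in 17.4% of all promoter entries over the same length. A match is a description of the annotated bases and not of a methylated site.

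**Figure D3:**
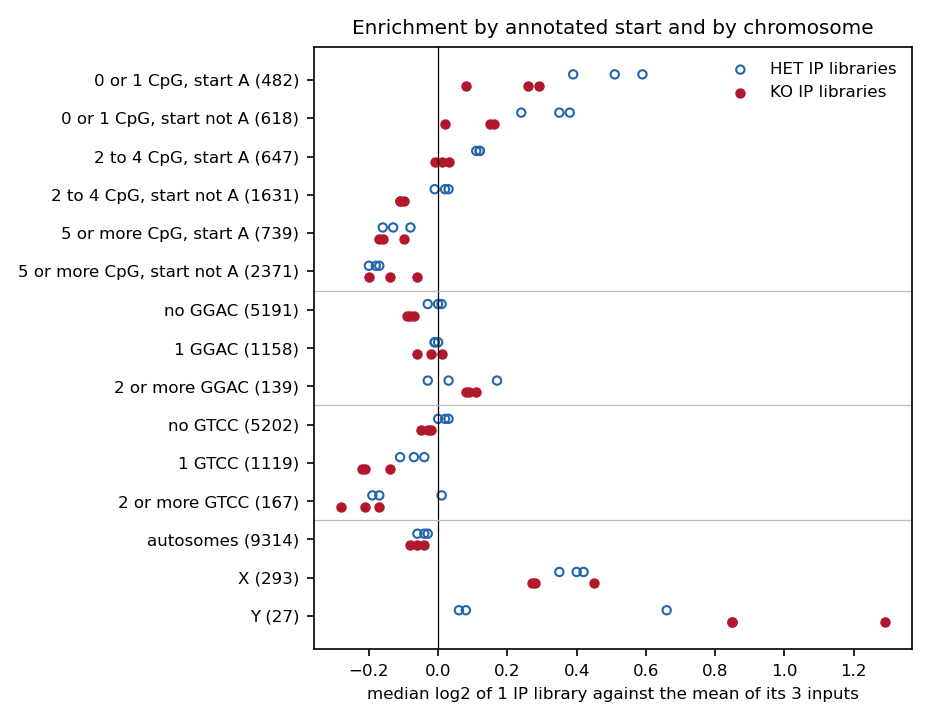
Median log2 of 1 IP library against the mean of its 3 inputs (x axis) for members in classes of annotated start, of GGAC and GTCC in the first 50 bases, and of chromosome (y axis, number of members in brackets), with 1 point per KO (red) and HET (blue) IP library. The class with 0 or 1 CpG and an A start has KO points at 0.08 to 0.29 and HET points at 0.39 to 0.59. The class with as few CpG and another start has KO points at 0.02 to 0.16 and HET points at 0.24 to 0.38, and the classes with 5 or more CpG overlap.

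Genes of the sex chromosomes stood apart from the autosomes in KO IP. Protein-coding members on the X chromosome (293) had a median of 0.27, with 28.3% enriched and 9.22% depleted, against -0.09, 21.6% and 26.2% for 9314 on autosomes, whose medians ran from -0.21 to 0.01. The 3 KO IP libraries gave X medians of 0.28, 0.45 and 0.27. HET gave 0.39 for X and -0.04 for autosomes, so the X genes stood above the autosomes in both genotypes. The X median was 0.23 over the 286 X genes whose values no other gene shares, and in inputs of 50 or more it was 0.16 against -0.11 on autosomes. The 27 protein-coding members on Y had a median of 1.00 in KO, with 17 enriched and 2 depleted, and 0.30 in HET. Their median KO input signal was 12.3, close to the filter, where low genes can enter through the IP libraries. All members with a KO input signal up to 20.2, 1 of 5 classes of equal size, had a KO median of 0.25, with 22.3% enriched and 8.18% depleted, and the other classes had medians from -0.15 to -0.09. The part of input level in the Y values was not tested. Y genes belong largely to multicopy families, so their reads may be split between copies. The 21 Y genes whose values no other gene shares had a median of 1.07 in KO, with 14 enriched and 2 depleted, and 0.30 in HET. Unprocessed pseudogenes (79), with a median KO input of 21.0, had a median of 0.94, and processed pseudogenes (478), with one of 55.3, had -0.43.

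**Figure D4:**
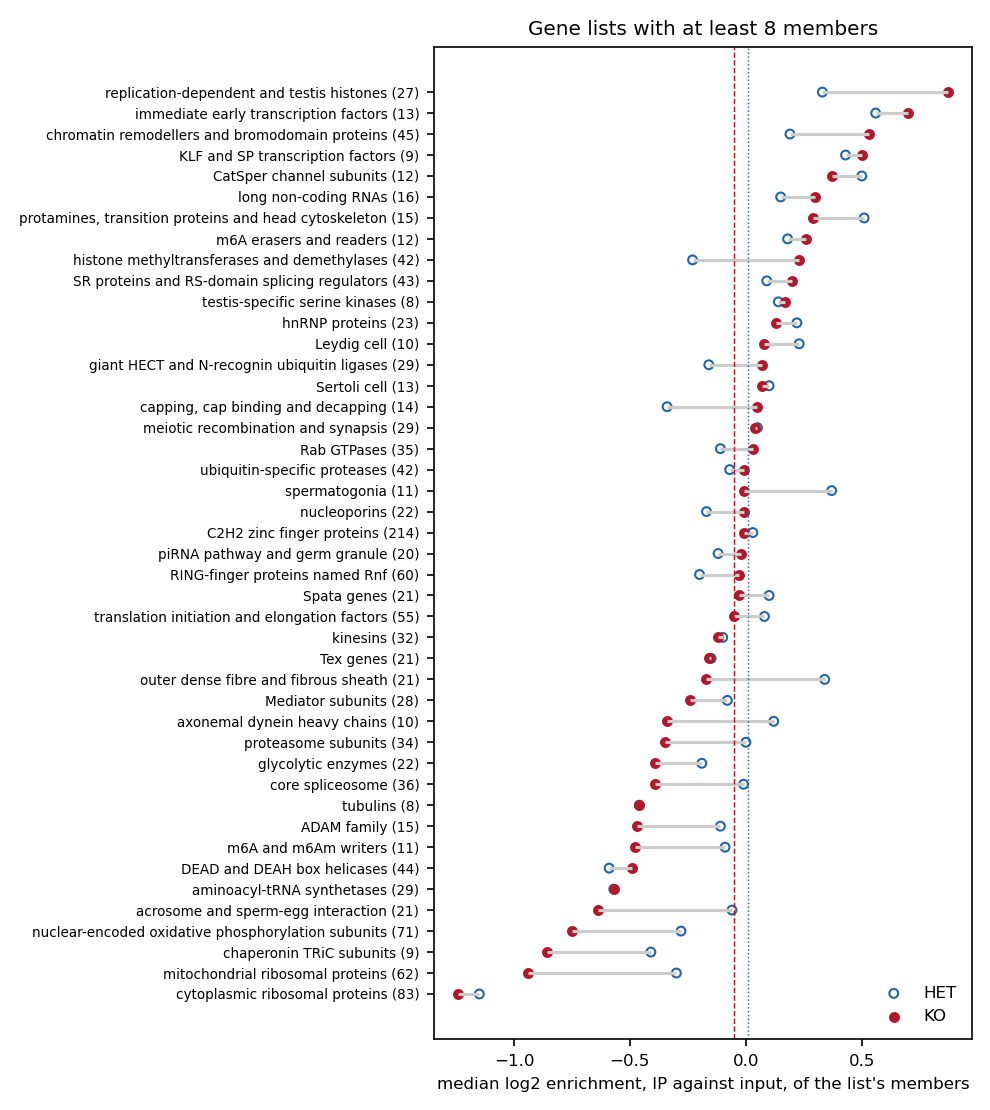
Median log2 enrichment (x axis) of the members of each gene list with at least 8 members (y axis, number of members in brackets) in KO (red) and HET (open blue). The dashed red and dotted blue lines mark the medians of all members, -0.05 and 0.01, and ribosomal proteins stand lowest in KO at -1.24 and histones highest at 0.87.

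Counts of called list members are set against the 22.7% enriched and 25.2% depleted among all members (background 21.2% and 24.3%). Counts of differences between KO and HET are set against backgrounds of 6.25% lower and 3.72% higher. The ribosomal protein genes were the list with the lowest median among lists of at least 8 members. Of 83 cytoplasmic ribosomal protein genes 64 (77.1%) were depleted and 4 (4.82%) enriched, with a median of -1.24 in KO and -1.15 in HET. Rplp0, of the ribosomal stalk, went from 1529, 1717 and 1650.2 in KO inputs to 157, 183 and 234 in KO IP, and Rpl9, of the large subunit, from 3591, 3875 and 3343 to 606, 629.8 and 500.1. Rps16, of the small subunit, had log2 values of -2.82 in KO and -2.10 in HET. Rplp0 differed between the genotypes (-3.10 against -1.55, limma adjusted p = 0.00076), whereas Rpl9 was -2.64 against -3.09 (adjusted p = 0.171). Many ribosomal protein genes have processed pseudogenes that can take up their reads.

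Nuclear genes of mitochondrial proteins had lower medians in KO than in HET. Of 62 mitochondrial ribosomal protein genes 38 (61.3%) were depleted and 5 (8.06%) enriched, with medians of -0.94 in KO and -0.30 in HET, and 9 (14.5%) were called lower in KO and none higher. Of 71 nuclear-encoded subunits of oxidative phosphorylation 44 (62%) were depleted and 3 (4.23%) enriched, with medians of -0.75 and -0.28, and 18 (25.4%) were called lower and 1 higher. Ndufs4, an accessory subunit of complex I, went from 439, 444 and 428 to 61.4, 55.1 and 47.8 in KO, while HET had 412, 521 and 515 in inputs and 151, 227 and 279.6 in IP. Ndufa11 stood at -2.61 against -0.76 (limma adjusted p of the difference = 0.00946). Ndufs5, at -3.70 against -1.37, passed the filter through the inputs alone, so its values are a description. The mitochondrial ribosomal genes Mrpl21, Mrpl35 and Mrps25 had KO values of -3.24, -2.76 and -2.27. By contrast, 3 of 5 genes encoded by mitochondrial DNA were enriched and none depleted, among them mt-Nd4 (1.35) and mt-Atp6 (1.11), and both share all 12 values with another gene of the table.

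Of the 9 subunit genes of the chaperonin TRiC, which folds actin and tubulin, 7 (77.8%) were depleted and none enriched (median -0.86 in KO, -0.41 in HET). Cct5 went from 785, 859 and 906 to 79.3, 104 and 104. Cct3 went from 1337, 1291 and 1384 to 589.7, 628 and 528 in KO and from 1364, 1403 and 1434 to 1520.1, 1851 and 1669.7 in HET, so its IP values lay below the inputs in KO alone (difference -1.46 ± 0.17 (SE), limma adjusted p = 0.000134). Tcp1 had -1.71 against -0.44 and Cct4 -1.21 against -0.41, with adjusted p of 0.00328 and 0.113. Aminoacyl-tRNA synthetases had 11 of 29 members (37.9%) depleted and 3 (10.3%) enriched (median -0.57), with Sars, which charges serine, at -2.08 and Kars, which charges lysine, at 1.97. Of 55 translation factors 17 (30.9%) were depleted and 12 (21.8%) enriched (median -0.05), shares near those of all members. Eef1a1, the major elongation factor, stood at -2.21 and Eif4a3, a core component of the exon junction complex, at -2.03.

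Glycolytic genes split by member, with 8 of 22 (36.4%) depleted, 3 (13.6%) enriched and a median of -0.39. Ldhc, the lactate dehydrogenase of sperm, went from 1994, 1883 and 2080.5 in KO inputs to 395, 504 and 426 in KO IP, while HET inputs held 2567, 2668 and 2676 and HET IP 1766, 2362 and 2508. Its KO values did not overlap and its difference between genotypes was -1.90 ± 0.20 (SE) (limma adjusted p = 8.87e-05). Gapdhs, the glyceraldehyde-3-phosphate dehydrogenase of spermatids, was -1.04 in KO and 0.34 in HET (adjusted p of the difference = 0.0063). Tpi1, triosephosphate isomerase, was enriched instead, from 4765, 4016 and 3899 to 19380.0, 18481 and 11937, and stood at 1.35 in HET.

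Chromatin regulators had a median above that of all members. Of 45 chromatin remodelling and bromodomain genes 21 (46.7%) were enriched and 6 (13.3%) depleted (median 0.53 in KO, 0.19 in HET), and 10 (22.2%) were called higher in KO than in HET and 1 lower (background 3.72% higher). Chd4, the ATPase of the NuRD complex, went from 729, 694 and 669 to 2646, 3050.1 and 1824, and Arid1a, a subunit of BAF complexes, from 92.2, 92.2 and 106 to 305, 269 and 307. Brwd3, an X-linked bromodomain protein, was enriched in both genotypes (2.43 and 1.83), and Baz1a, of the ACF complex, stood at 1.63 in KO and 0.33 in HET. Histone methyltransferases and demethylases had 9 of 42 (21.4%) enriched and 6 (14.3%) depleted, with medians of 0.23 in KO and -0.23 in HET, and 7 (16.7%) were called higher and 2 lower. Among them Ezh2, the catalytic subunit of Polycomb repressive complex 2, stood at 1.29, while the H3K9 methyltransferases Suv39h1 and Suv39h2 stood at -1.55 and -1.52. Core and testis histone genes had 14 of 27 (51.9%) enriched and 5 (18.5%) depleted (median 0.87, HET 0.33). The variant H3f3b was depleted (-2.23), and H2al1b was enriched (1.47) with values that another gene of its family shares in full.

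SR proteins and other RS-domain splicing regulators had 15 of 43 (34.9%) enriched and 5 (11.6%) depleted (median 0.20), whereas genes of the core spliceosome had 7 of 36 (19.4%) enriched and 12 (33.3%) depleted (median -0.39). The transcription kinases Cdk12 and Cdk13 stood at 1.54 and 1.41, and Tra2a, a splicing activator, at -2.11. Among core genes, Lsm8, of the ring on U6 snRNA, went from 196, 238 and 205 to 29.9, 13.2 and 32.4. The hnRNP genes had 9 of 23 (39.1%) enriched and 5 (21.7%) depleted (median 0.13). Pcbp2, an abundant poly(C)-binding protein, went from 13849, 15373 and 15419 to 35020.0, 28944 and 38426, Hnrnpd stood at 1.31 and the X-linked Hnrnph2 at -1.52. DEAD and DEAH box helicases had 14 of 44 (31.8%) depleted and 6 (13.6%) enriched (median -0.49), among them Dhx9 (-2.31). Immediate early genes had 4 of 13 (30.8%) and the KLF and SP factors 4 of 9 (44.4%) enriched, with none depleted in either short list, against 22.7% enriched and 25.2% depleted of all members. Fosb, with KO inputs of 19.5, 9.0 and 6.55 and IP values of 59.9, 70.5 and 41.4, Egr3 (1.95) and Klf4 (1.56) were among them.

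The machinery of the modification itself was read by the same antibody. Of 12 m6A eraser and reader genes 4 (33.3%) were enriched and none depleted (median 0.26), against 22.7% and 25.2% of all members. Fto, the demethylase of m6A and of m6Am, went from 426, 414 and 391 in KO inputs to 1513, 1698 and 1183 in KO IP, and the difference from HET (1.23) did not pass the test (adjusted p = 0.0659). The nuclear reader Ythdc1 stood at 1.39 and the cytoplasmic reader Ythdf3 at 0.94. Of 11 writer genes 1 (9.09%) was enriched and 3 (27.3%) depleted (median -0.48), the depleted share being near that of all members. Mettl16, which methylates U6 snRNA, went from 70, 69 and 72.8 to 5.99, 17.6 and 23.4, Mettl4 stood at -1.30 and Cbll1, of the m6A writer complex, at -1.64. Rbm15, which helps recruit that complex, was the enriched one, from 20.4, 23.2 and 17.2 to 89.8, 70.5 and 52.3. Of 14 capping, cap-binding and decapping genes 2 (14.3%) were enriched and 3 (21.4%) depleted, both below the shares of all members. Both subunits of the nuclear cap-binding complex were depleted, Ncbp1 at -1.16 and Ncbp2 at -1.51, as was the decapping cofactor Dcp1b (-1.15).

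Of 21 genes of the acrosome and sperm-egg interaction 7 (33.3%) were depleted and 2 (9.52%) enriched in KO, with medians of -0.64 in KO and -0.06 in HET. Against the background of 6.25% lower and 3.72% higher, 8 (38.1%) were called lower in KO and 1 (4.76%) higher. Spaca1, a membrane protein of the acrosome, went from 362, 286 and 254 to 62.9, 77.1 and 96.4 in KO and from 352, 391 and 382 to 248, 202 and 372 in HET (difference -1.43 ± 0.31 (SE), limma adjusted p = 0.0101). Zpbp, a zona pellucida binding protein, stood at -1.55 against 0.22, and Acrv1, an acrosomal vesicle protein, at -2.56 against 0.75. Spink2, an acrosin inhibitor, was depleted in both (-1.52 and -1.29, adjusted p of the difference = 0.549).

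Genes of the sperm calcium channel CatSper had 6 of 12 (50%) enriched and 2 (16.7%) depleted (median 0.37, HET 0.50). Catsper1, a pore subunit, went from 502, 394 and 369.8 to 1643, 1310.3 and 893, Catsperg1 stood at 1.48 and Slco6c1 at 0.98, while Catspere2 was depleted (-1.36). Outer dense fibre and fibrous sheath genes had 6 of 21 (28.6%) enriched and 8 (38.1%) depleted, with medians of -0.17 in KO and 0.34 in HET, and 6 (28.6%) were called lower in KO and none higher. Spa17, a sperm surface and fibrous sheath protein, went from 958, 931 and 883 to 4233, 4264 and 3208, and Tekt3, a tektin of the axoneme, stood at -1.67 against -0.00 in HET. Protamine, transition protein and head cytoskeleton genes had 4 of 15 (26.7%) enriched and 1 (6.67%) depleted (median 0.29). Prm2, a protamine, went from 105, 89.2 and 96.5 to 663, 361 and 335, and Dnajb8 and Cntrob stood at 0.79 and 0.61. ADAM genes had 1 of 15 (6.67%) enriched and 5 (33.3%) depleted, with Adam10 at 1.48 and Adam3, a sperm migration factor, at -0.87. Spata3 was enriched in KO (1.58) and HET (1.59). Tex36, which passed the filter through the inputs alone, went from 36.3, 30.7 and 36 to 1.50, 2.20 and 5.41 in KO. Its values of -3.25 in KO and 0.01 in HET are given as a description.

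Meiotic and piRNA genes had shares near those of all members, 22.7% enriched and 25.2% depleted. Meiotic recombination and synapsis genes had 6 of 29 (20.7%) enriched and 9 (31%) depleted, with the recombinase Dmc1 at -2.82 and the synaptonemal complex gene Sycp1 at -1.90, whose IP and input values overlapped. Genes of the piRNA pathway had 5 of 20 (25%) enriched and 6 (30%) depleted, with the Piwi protein Piwil2 at 1.40 and Mael at -1.81. Spermatogonial markers had 4 of 11 (36.4%) enriched and 1 (9.09%) depleted, among the former Zbtb16 (1.72) and Id4 (0.84). The meiotic and spermatogonial medians, 0.04 and -0.01, changed sign under other scalings.

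Some of the genes listed as markers of somatic cells of the testis and of neighbouring tissue were present in both fractions. Their presence does not show that neighbouring tissue was in the samples. Sertoli markers had 4 of 13 (30.8%) enriched and 1 (7.69%) depleted, and their summed signal was 3899 to 4246 in KO inputs. Inha, the inhibin alpha subunit, went from 12.4, 24 and 14.7 to 91.3, 83.7 and 63.1 in KO and from 18.97, 16.6 and 15.9 to 13.4, 23.5 and 19.7 in HET (difference 2.09 ± 0.45 (SE), limma adjusted p = 0.00952). Vim, vimentin, stood at 1.08. Leydig markers had 3 of 10 (30%) enriched and 2 (20%) depleted, with Aldh1a1 at 2.04 and Scarb1 at -0.99. Only 4 of 16 macrophage, 5 of 18 peritubular and vascular and 3 of 17 epididymis markers were members, and no erythrocyte marker was. Aif1 stood at 1.03, Tyrobp at -2.33 and the epididymal cystatin gene Cst8 at 1.08. In whole tissue, fewer cells of a type and less RNA per cell cannot be told apart, and the part of cell mixture in these ratios was not tested.

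Genes called in both genotypes show how far the calls were shared at this threshold. Enrichment in KO and in HET was called for 1147 members, 44.4% of the KO-enriched and 64.8% of the HET-enriched. Depletion in both was called for 1229, 42.9% of the KO-depleted and 66.3% of the HET-depleted. Over all members, 22.7% were enriched in KO and 15.6% in HET, and 25.2% and 16.3% were depleted. Only 11 members were enriched in KO and depleted in HET, and 76 the reverse. The KO-enriched members had a median of 1.05 in KO and 0.56 in HET, and 2287 of the 2585 had a HET value above 0. Besides Alb, Fscb, Tex13c1 and Brwd3, the genes that were highest in both were Fosb (2.30 and 2.62) and the adaptor protein gene Shc4 (2.49 and 1.89). Neat1, a nuclear long non-coding RNA, was also enriched in both (1.89 and 1.27).

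The KO enrichment minus the HET enrichment was tested within the same model, and since it shares the KO libraries with the comparison above it is no independent support for it. It was called lower in KO for 751 members (6.61%, background 6.25%) and higher for 460 (4.05%, background 3.72%). Without 1 library at a time the counts ran from 398 to 979 lower and from 143 to 718 higher. Without KO input replicate 2 they were 398 and 143, and without HET IP replicate 1 they were 979 and 718. Leaving out KO input replicate 3, or HET input replicates 1, 2 or 3, gave 450, 411, 456 and 438 lower and 199, 185, 194 and 192 higher, and without KO input replicate 1 there were 298 higher.

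Among named genes with a mean KO signal of at least 50, the largest gains over HET were of Vegfa, Ski, Tbc1d10b, Pim3, Arl11 and Myd88, none of them called enriched in HET. Pim3 and Myd88 passed the filter only with their IP values. Vegfa, the vascular endothelial growth factor, went from 25.7, 14.2 and 13.9 to 98.8, 112 and 54.1 in KO and from 20.6, 12.9 and 16.7 to 25.4, 20.2 and 7.15 in HET. Ski, a corepressor of SMAD proteins, was enriched in KO (1.27) and depleted in HET (-0.97), a difference of 2.24 ± 0.49 (SE) (limma adjusted p = 0.0111). Tbc1d10b, a Rab GTPase-activating protein, stood at 1.35 against -0.85 (adjusted p = 0.00783). Arl11, a small GTPase, was 1.42 against -0.70, and Myd88, the adaptor of Toll-like receptors, 1.86 against -0.25. The difference from HET held without any 1 library for Ski and Tbc1d10b, while Vegfa, Pim3, Arl11 and Myd88 each lost it without at least 1 (highest adjusted p 0.0734, 0.0751, 0.112 and 0.113). The Arl11 enrichment in KO was lost without KO input replicate 2 or KO IP replicate 1 (adjusted p = 0.0766 and 0.0768).

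The largest losses by the same rule were of Ccdc60, Ndufv2, Sf3b3, Med6, Bcl2l13 and Ccdc150. Med6, a subunit of the Mediator head, had KO inputs of 38.99, 68.2 and 54 and KO IP values of 5.99, 11.01 and 11.7, against HET inputs of 33.99, 41.6 and 35.8 and HET IP values of 41.8, 42.4 and 44.7. The difference was -2.60 ± 0.42 (SE) (limma adjusted p = 0.00201). Bcl2l13, a mitochondrial BCL2-family protein, went from 81.5, 72.7 and 67.9 to 13.5, 4.40 and 12.6 in KO and stood at -0.30 in HET (adjusted p of the difference = 0.00584). Med6 begins with G and Bcl2l13 with A at the annotated start.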

How the data were processed

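Counts of reads per gene had been scaled by the authors before they deposited 1 signal value per gene and library, which per the values is a whole number of reads times a factor for the library. In all 12 libraries 100% of values were whole multiples of 1 read within a tolerance of 0.01. Tools listed in the submitters' processing notes, with no role, are STAR, DESeq, DESeq2 1.25.10, Salmon 0.12.0 and R 3.6.2. The strand setting, the filters, the annotation and the build were not given in the sources used here, so antisense and overlapping genes are uncertain. The deposited log2 fold and adjusted p-value columns, and the mean signal the authors deposited, were not used.

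Libraries were grouped by the labels and numbered within a group in accession order. Limma 3.58.1 (R 4.3.3, empirical Bayes with a mean-variance trend) was fitted to log2(signal + 1) over 12 libraries and 12387 genes, with contrasts for KO, HET and their difference. The count test foreseen as main for raw counts became an alternative: edgeR 4.0.16 and DESeq2 1.42.0 were run on the recovered reads. Other filters, a pseudocount of 5, other scalings, the 6 KO libraries alone and each library left out were also tried.

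Members, gene lists and rules were chosen with earlier results of these data known. Named genes had a mean of at least 50 in KO inputs or KO IP. They were the 12 highest and 10 lowest called enrichments without overlap, the 6 highest in both genotypes, the 6 most raised and 6 most lowered against HET, the 6 with the tightest IP, and examples from the up to 4 largest called changes of each list. Of the 10 lowest, 1 gene is not reported here. Gene-list examples were taken whether or not that mean was reached. The 49 lists held 1402 members, of which 276 were enriched and 416 depleted. Starts came from RefSeq promoters of GRCm38.p6 matched by symbol, and exon numbers and transcript lengths were not analysed here.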

Additional observations from a re-analysis of the deposited data

Results flagged for a closer look

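The enrichment of 58 genes named above differed between KO and HET by limma's test of the difference itself (Benjamini-Hochberg adjusted p below 0.05, 3 libraries in each of 4 groups). Values are KO minus HET on the log2 scale, a negative one being a lower ratio of IP to input in KO. For 33 of these genes the call held under every other setting tried, library by library included.

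Higher in KO were Ski (2.24), Tbc1d10b (2.21), Inha (2.09), Sec62 (1.51), Sfswap (1.41) and Tspyl2 (1.37). Further gains were those of Rbbp6 (1.35), Arid1a (1.06), Kars (1.06) and Ahcyl2 (0.89). Lower in KO were Tex36 (-3.26), Ndufv2 (-2.87), Ccdc60 (-2.87), Sf3b3 (-2.62), Med6 (-2.60), Bcl2l13 (-2.57) and Ccdc150 (-2.55). Next in order were Lyrm9 (-2.39), Dohh (-2.37), Hnrnph2 (-1.96), Ldhc (-1.90), Suv39h1 (-1.86), Ndufa11 (-1.85) and Ndufs4 (-1.81). Then came Rplp0 (-1.55), Cct3 (-1.46), Spaca1 (-1.43), Gapdhs (-1.38), Eif4a3 (-1.32), H3f3b (-1.31) and Tcp1 (-1.27). The smallest losses in this set were those of Cct5 (-1.21) and Ncbp2 (-1.16).

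Each of the other 25 calls was lost when at least 1 of the libraries named beside it was left out. Smad3 (1.71, a description) lost its call without KO input replicates 1 or 2, KO IP replicate 1, HET input replicates 1 or 2 or HET IP replicates 2 or 3. Pim3 (2.18) lost its call without KO input replicate 2, KO IP replicate 1, HET input replicates 1, 2 or 3 or HET IP replicates 2 or 3 (adjusted p from 0.0513 to 0.0751). Ndst1 (2.05) lost its call without KO input replicates 2 or 3, HET input replicates 2 or 3 or HET IP replicates 2 or 3 (adjusted p from 0.0547 to 0.0804). Scrt1 (1.02) lost its call without KO input replicates 2 or 3, HET input replicates 1 or 3 or HET IP replicate 3 (adjusted p from 0.0564 to 0.0712). Entpd4b (-1.17) lost its call without KO input replicates 1, 2 or 3, HET input replicates 1, 2 or 3 or HET IP replicate 3 (adjusted p from 0.063 to 0.0836). Vegfa (2.30) lost its call without KO input replicates 2 or 3, KO IP replicate 1, HET input replicates 1 or 3 or HET IP replicate 3 (adjusted p from 0.0512 to 0.0734). Arl11 (2.12) lost its call without KO input replicates 2 or 3, KO IP replicate 1, HET input replicates 1, 2 or 3 or HET IP replicates 2 or 3 (adjusted p from 0.0759 to 0.112). Myd88 (2.11) lost its call without KO input replicates 2 or 3, KO IP replicates 1 or 2, HET input replicates 1, 2 or 3 or HET IP replicates 2 or 3 (adjusted p from 0.0536 to 0.113). Zfp54 (1.74) lost its call without KO input replicates 2 or 3, KO IP replicate 1, HET input replicates 1 or 2 or HET IP replicate 2 (adjusted p from 0.0579 to 0.0945). Kcnq3 (1.26) lost its call without KO input replicate 2 or HET input replicate 2 (adjusted p from 0.0506 to 0.0543). Klf9 (1.42) lost its call without KO input replicates 1 or 2, KO IP replicates 1, 2 or 3, HET input replicates 1, 2 or 3 or HET IP replicates 2 or 3 (adjusted p from 0.0608 to 0.117). Mettl16 (-1.98) lost its call without KO input replicates 2 or 3, HET input replicates 1 or 3 or HET IP replicate 3 (adjusted p from 0.0541 to 0.0624). Ythdc1 (0.94) lost its call without KO input replicates 1, 2 or 3, KO IP replicates 1 or 2, HET input replicates 1 or 3 or HET IP replicates 2 or 3 (adjusted p from 0.0529 to 0.116). Cdk12 (1.32) lost its call without KO input replicates 2 or 3, HET input replicates 1 or 3 or HET IP replicate 3 (adjusted p from 0.057 to 0.0784). Cdk13 (0.92) lost its call without HET input replicate 1 (adjusted p 0.0558). Lsm8 (-1.80) lost its call without KO input replicate 2 or HET input replicate 1 (adjusted p from 0.0561 to 0.0572). Suv39h2 (-1.17) lost its call without KO input replicate 2 or HET input replicate 1 (adjusted p from 0.0546 to 0.0576). Baz1a (1.30) lost its call without HET input replicates 1 or 2 (adjusted p from 0.0509 to 0.053). Mrpl35 (-2.07, a description) lost its call without KO input replicates 2 or 3 or HET input replicates 1, 2 or 3. Mael (-1.49) lost its call without KO input replicates 1, 2 or 3, HET input replicates 1, 2 or 3 or HET IP replicates 1 or 3 (adjusted p from 0.0793 to 0.104). Acrv1 (-3.31) lost its call without KO input replicates 1, 2 or 3, HET input replicates 1, 2 or 3 or HET IP replicates 2 or 3 (adjusted p from 0.0541 to 0.0853). Zpbp (-1.77) lost its call without KO input replicate 2 (adjusted p 0.0532). Catsperg1 (0.96) lost its call without KO input replicate 2 (adjusted p 0.0535). Tekt3 (-1.67) lost its call without KO input replicate 3 or HET input replicate 1 (adjusted p from 0.052 to 0.0564). Tyrobp (-3.00, a description) lost its call without KO input replicates 1, 2 or 3, HET input replicates 1 or 2 or HET IP replicates 2 or 3.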

How the results depend on the processing

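No count of enriched or depleted members in KO moved by more than 1.5 times under any setting. Without 1 KO library they ran from 2057 to 2388 enriched and from 2274 to 2840 depleted, and the list members from 223 to 258 and from 351 to 414. edgeR gave 2655 enriched and 2731 depleted and DESeq2 2624 and 2712. Scaling by library total, which moved the median of all members from -0.05 to -0.15, gave 2181 and 3253, and 40.1% of calls were then enrichments against 47.4%. Of the main calls, edgeR kept 2554 enriched and 2703 depleted members, and no setting turned a call round. The medians of 15 of 48 lists, between -0.12 and 0.08, changed sign with the scaling or tool.

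The difference between KO and HET was less stable. Higher members numbered 257 with no filter and 721 by DESeq2, against 460. Without 1 library there were 143 to 718 higher and 398 to 979 lower. The KO medians by start base at a mean KO signal of at least 50 were 0.05 for A and -0.04 for other bases, against -0.06 and -0.12.

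All 118 named genes were called in KO, which most of the rules of choice required, so this is no result. The call held under every setting for 117, the exception being Arl11 without KO input replicate 2 or KO IP replicate 1. The named genes include those that passed the filter through 1 fraction alone, whose calls are a description. Of 58 named differences from HET 33 held under every setting and none reversed. Among the 33 are Dohh, Lyrm9 and Tex36, and among the rest Smad3, Mrpl35 and Tyrobp. All of these passed the filter through 1 fraction alone, so that their differences are a description. Without a filter 11 were lost, under library-total scaling 2 and under TMM 1. The cause was not tested.

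No paired analysis was possible because the labels carry no replicate numbers. The shallow KO IP replicate 2 makes the depletion of low genes coarse, since 1 read there is worth 2.20 units and a gene without a read enters at 0. It listed 201 members at 0.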

Other observations

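Non-coding members behaved in several ways. The 91 miRNA genes, as the table counts their loci, had a median of 0.05 in KO and -0.35 in HET. Of these, 18 (19.8%) were called higher in KO than in HET and 2 lower, against a background of 3.72% higher. Their medians in the 3 KO IP libraries were 0.34, 0.03 and -0.20, a wide spread, and 19 (20.9%) were enriched and 24 (26.4%) depleted in KO, near the 22.7% and 25.2% of all members. LincRNA genes (357) had medians of 0.25 in KO and 0.49 in HET, with 98 (27.5%) enriched and 62 (17.4%) depleted in KO. Antisense genes (283) had 0.19 and 0.40, with 80 (28.3%) enriched and 37 (13.1%) depleted. The median KO input signal was 24.5 for lincRNA and 25.5 for antisense genes. All members with a KO input up to 20.2 had a KO median of 0.25 with 22.3% enriched and 8.18% depleted, and those from 20.2 to 45.2 had -0.15 with 17.4% and 20.3%, and the part of input level was not tested. Reads of antisense genes and of the genes they overlap cannot be told apart without strand.

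With members ranked by gene span into 5 classes of equal size, the longest (62.5 kb and more) had a KO median of 0.07 and the others lay between -0.14 and -0.08. In HET the longest class stood at 0.00 and the shortest at 0.08. Gm25732, a miRNA gene, was the other member at 0 in all 3 KO inputs, and its mean KO IP signal of 21.2 was at least 25.9-fold above the floor of 3 reads. It passed the filter through the IP libraries alone, so this is a description.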
